A study of Mus musculus with 12 samples.

Results

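The mRNAs of ribosome biogenesis factors were followed through polysome gradients of mouse liver. Members were all protein-coding genes whose symbols have the forms Nop, Nol, Utp or Rrp plus digits, Noc plus a digit and l, or Polr1 plus a letter, together with Fbl, Ncl, Dkc1, Gar1, Nhp2, Imp3 and Imp4. The rule found 47 genes among 27179 gene IDs, of which 20983 are protein-coding. Of these members, 45 passed the filter on low counts. The exceptions, Nol3 and Nol4, entered through their names alone: Nol3 encodes an apoptosis repressor, and Nol4 had 0 counts in all 12 libraries.

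The libraries came from 6 livers of male C57BL/6 mice, each split into a heavy polysome pool, which the study treats as highly translated mRNA, and a light pool. Of the livers, 2 came from wild-type mice fed a ketogenic diet for 24 h (keto 1 and keto 2), 1 from a mouse homozygous for the S209A substitution in the translation initiation factor eIF4E (S209A), and 3 from wild-type mice on chow (chow 1, chow 2 and chow 3). The S209A mouse was also on chow, and its substitution removes the serine that the MNK kinases phosphorylate. The titles call chow 3 and S209A fed and the other livers chow or keto. Chow 1 and chow 2 are recorded with the same 24 h on diet as keto, and chow 3 and S209A with no time. The file headers name one aligner for chow 1 and chow 2, another for chow 3 and S209A, and none for either keto liver, so diet cannot be told apart from what the headers record when keto is set against chow. With 1 S209A animal its comparisons have no replicate check, and their tests assume that it varies as the other livers do. In whole liver, fewer cells of a type and less mRNA per cell cannot be told apart.

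Ribosome biogenesis starts in the nucleolus, where RNA polymerase I transcribes the ribosomal RNA precursor. The small subunit processome folds and cuts the part that becomes 18S rRNA, a separate set of factors matures the large subunit, and box C/D and box H/ACA ribonucleoproteins guide methylation and pseudouridylation of the RNA. Making ribosomes costs a cell much of its energy, and the supply of these factors is one of the points at which growth signals act. Many ribosomal protein mRNAs begin with a run of pyrimidines, which ties their translation to nutrient signalling, and the E-box CACGTG is the site that Myc family factors bind in many ribosome biogenesis genes.

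The 30 bases around the annotated start of transcription were read for the box C/D core members Nop56 and Nop58, for nucleolin and for members with large values below. Both members with a pyrimidine start at that base were added, with the ribosomal protein gene Rps6 for comparison (RefSeq, GRCm38.p6, strand of the gene, 15 bases on each side of the start). Capitals mark a run that begins with C at the first transcribed base and holds at least 4 more C or T.
Ncl (chr1:86359441-86359470, minus strand): ggctccggggacggacgcgagctctggttg
Nop56 (chr2:130274397-130274426, plus strand): aggtgtggtctccgcagtctggttccgcgc
Nop58 (chr1:59684991-59685020, plus strand): tatttgctgctccacgaggagaggtgtgga
Nop16 (chr13:54590060-54590089, minus strand): ttcccaagaatccttgcgcgcacgggtgga
Imp3 (chr9:56937485-56937514, plus strand): cctttctcccgcattctccatcatggtgcg
Utp3 (chr5:88554447-88554476, plus strand): cggaaggaaacaggcCTTTCCCagactctc
Nol11 (chr11:107189367-107189396, minus strand): ggtgttcgcctcctcCTCTTCCgcccgcca
Rps6 (chr4:86857353-86857382, minus strand): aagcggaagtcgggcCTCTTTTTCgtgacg
Of the members, 38 had a RefSeq promoter sequence here, and 2 of these (5.26%) began with such a run, Utp3 and Nol11. The share was 22.8% for 57 cytosolic ribosomal protein genes (13 genes) and 2.17% for 16784 protein-coding genes. Most ribosomal protein genes thus also missed this rule, which asks for a C at exactly the annotated first base. The shares therefore cannot show how many members have a pyrimidine start. Starts were those of the promoter table and were not measured in liver. They lie 45 bases inside the gene record for Nop56 and Nop58 and 23 bases inside it for Nop16, and equal its 5′ end for Ncl, Imp3, Utp3 and Nol11.

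The palindrome CACGTG stood in the 250 bases before the start of 4 of the 38 members (10.5%), against 6.83% of the 16784 protein-coding promoters. The 30 bases around each are shown on the strand of the gene, with CACGTG in capitals.
Imp4 (chr1:34439696-34439725, plus strand): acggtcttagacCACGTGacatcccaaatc
Nop2 (chr6:125131811-125131840, plus strand): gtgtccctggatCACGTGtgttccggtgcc
Utp18 (chr11:93885769-93885798, minus strand): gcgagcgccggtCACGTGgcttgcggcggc
Nol11 (chr11:107189407-107189436, minus strand): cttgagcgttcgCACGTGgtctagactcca
The motif began 121 bases before the start in Imp4, 60 in Nop2, 20 in Utp18 and 43 in Nol11. These are matches of letters, with no measurement of binding.

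The members were scarce in every library. Total counts ran between 3341046 and 13263355 per library, of which nuclear protein-coding genes held 356666 to 1777315. The members together held 813 counts (keto 2 light) to 4415 counts (chow 3 light). Their share of protein-coding counts was lowest in keto 1 heavy, at 0.143% (95% exact interval 0.135% to 0.152%, counting error only), and highest in chow 3 light, at 0.273% (0.265% to 0.281%). Most small counts of chow 3 and S209A libraries were even, and if read pairs were counted as 2 reads there, which is not stated, their intervals are too narrow. The median tested member had 8 to 44 counts in a library. Nucleolin alone supplied between 22.6% (chow 1 light) and 43.2% (chow 2 heavy) of the member counts. Values below are CPM, counts scaled to library size by the TMM method. They are not corrected for gene length, so levels are compared between libraries and not between genes. The TMM factors ran from 0.324 (keto 2 light) to 3.12 (chow 3 light), and every CPM value rests on them.

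The summed TMM-scaled level of the members was low in the heavy pools of keto livers, and without nucleolin the place of keto 2 depended on the scaling. The sum was 167 and 247 CPM in keto 1 and keto 2 heavy, 313 CPM in S209A heavy, and 369, 446 and 305 CPM in chow 1, chow 2 and chow 3 heavy. Both keto heavy pools lay below all 3 chow heavy pools. In light pools the sum was 248 and 287 CPM in keto, 392 CPM in S209A, and 211, 233 and 344 CPM in chow, and keto lay within the chow range. The heavy means were 207 ± 56.8 CPM in keto (SD, n = 2) and 373 ± 70.7 CPM in chow (n = 3), a difference of -0.85 on the log2 scale. Without nucleolin they were 145 ± 42.0 CPM in keto and 228 ± 25.5 CPM in chow, a difference of -0.65. As a share of protein-coding counts without nucleolin, the members held 0.0990% and 0.165% in keto 1 and keto 2 heavy, against 0.147%, 0.152% and 0.156% in chow heavy, so keto 2 lay above every chow pool on that measure and keto 1 below. The keto heavy libraries also stood apart in composition. Mitochondrial rRNA made up 47.3% and 74.2% of their counts, against 16.7%, 12.9% and 13.8% in chow heavy, and nuclear protein-coding genes 5.60% and 6.01%, against 15.9%, 22.2% and 29.7% in chow heavy. A single gene ID held 42.9% and 15.9% of the counts in keto 1 and keto 2 heavy, against 59.1%, 57.0% and 51.5% in chow heavy. The part of these differences in the members' result was not tested. The sums are given as a description, with no test.

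**Figure D1:**
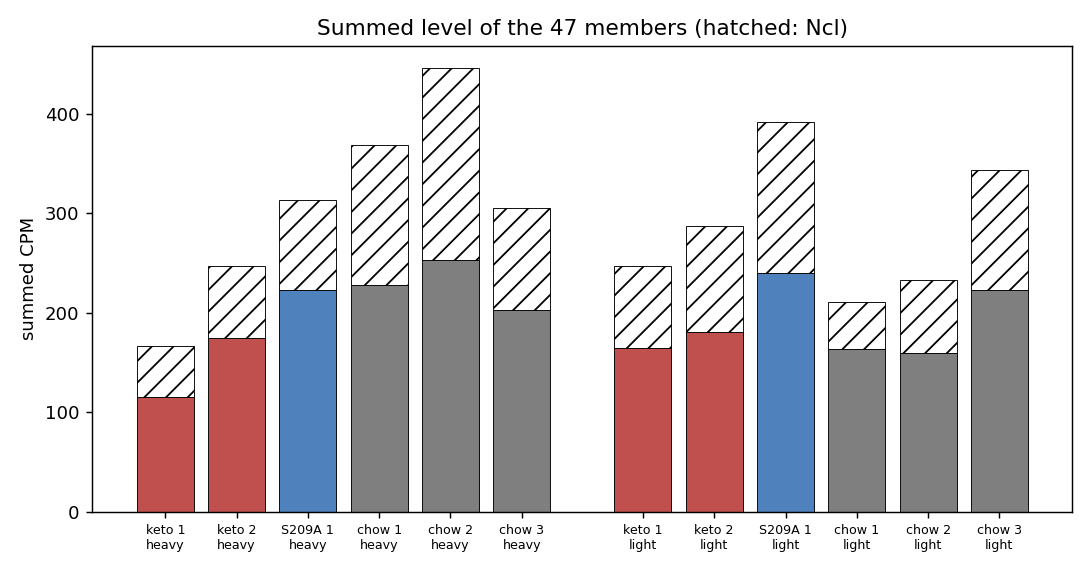
Summed CPM of the 47 members in each library, with nucleolin hatched. Heavy pools are on the left, light pools on the right. Keto heavy libraries (167 and 247 CPM) lie below chow heavy libraries (305 to 446 CPM), while light libraries overlap.

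Between heavy and light pools of the same liver, no member passed the test in any group. edgeR's quasi-likelihood test with the animal as a block and Benjamini-Hochberg adjustment over all 10555 tested genes called 3 genes over all 6 livers (0.0284%), 24 within chow (0.227%) and 19 within keto (0.18%), none of them members; DESeq2 and limma-voom called no member either. At an unadjusted p under 0.05 stood 1 member over all livers (3.4% of tested genes), 4 within chow (6.96%) and 3 within keto (4.27%). Over all livers 22 members had a log2 heavy over light above 0 and 23 below 0 (49% of all tested genes lay above 0), with a median of -0.02 beside -0.01 for all tested genes. The livers differed in this median: it was -0.68 in keto 1, 0.03 in keto 2, -0.13 in S209A, 0.44 in chow 1, 0.52 in chow 2 and -0.09 in chow 3. The medians of all tested genes lay between -0.08 and 0.02.

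**Figure D2:**
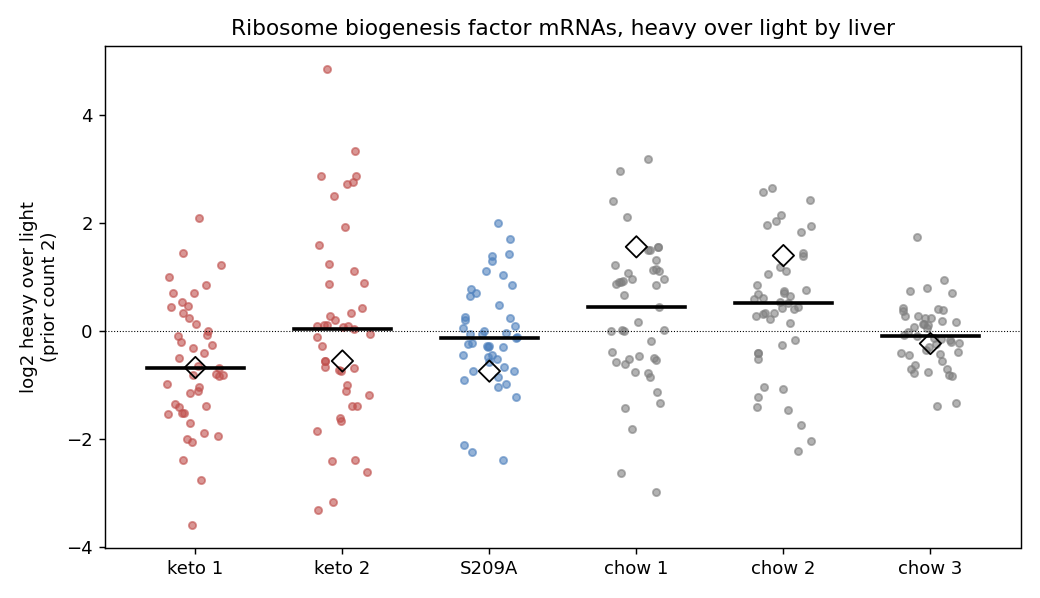
Log2 heavy over light of the 45 tested members in each liver (points, prior count 2 per library), with the median (bar) and nucleolin (diamond). Medians are 0.44 and 0.52 in chow 1 and chow 2, and between -0.68 and 0.03 in the other livers.

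Nucleolin is the abundant nucleolar protein that binds the ribosomal RNA precursor. Of the tested members it had the smallest p within chow and in the keto minus chow difference of heavy over light. It had 51.6 and 72.4 CPM in keto heavy pools, 90.3 CPM in S209A heavy, and 141, 193 and 103 CPM in chow heavy. In the light pools it had 82.7 and 107 CPM in keto, 152 CPM in S209A, and 47.7, 73.0 and 121 CPM in chow. Heavy exceeded light in chow 1 and chow 2 (log2 1.56 and 1.40) and not in chow 3 (-0.23), keto 1 (-0.68), keto 2 (-0.56) or S209A (-0.75). Within chow the fitted log2 heavy over light was 0.92 ± 0.37 (SE, adjusted p = 0.457 in edgeR), and within keto it was -0.62 ± 0.44 (adjusted p = 1). The keto minus chow difference of these ratios was -1.54 ± 0.58 (adjusted p = 0.594), in a test that called 20 of 10555 genes (0.189%). Chow 3 decided these calls: without it nucleolin passed within chow (1.45, adjusted p = 0.00116) and in the keto minus chow difference (-2.07, adjusted p = 0.00163). Many more genes of all kinds also passed in both comparisons without chow 3, with counts given in the last section.

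Among chow livers the other members with the smallest p were small subunit factors, all with more RNA in heavy pools. Imp3, which binds the U3 small nucleolar RNA, had 5.46, 10.4 and 2.77 CPM in heavy pools of chow 1, 2 and 3, and 1.04, 1.72 and 2.65 CPM in their light pools (log2 1.63 ± 0.73, adjusted p = 0.581). Nol7, known in human cells as a processome component, had 27.3, 20.0 and 12.2 CPM in heavy pools and 11.5, 7.19 and 10.8 CPM in light pools (0.96 ± 0.42, adjusted p = 0.565). Both were higher in heavy in each chow liver, by little in chow 3. Rrp12, needed in yeast for export and maturation of the pre-40S particle, had 9.68, 12.5 and 3.50 CPM in heavy and 3.13, 1.87 and 5.92 CPM in light (1.18 ± 0.69, adjusted p = 0.826), with chow 3 in the opposite direction. Of the 45 tested members, 28 lay above 0 within chow, with a median of 0.26, against 45.3% of all genes and a median of -0.09. The cytosolic ribosomal proteins had 65 of 77 above 0 (median 0.61), and the mitochondrial ribosomal proteins 44 of 72 (median 0.12). By role, 16 of 22 small subunit factors lay above 0 (median 0.43), and 4 of 10 large subunit factors (median -0.09). Of 36 further small subunit assembly factors that are not members, 14 lay above 0 (median -0.15). All 7 listed nuclear RNAs lay below 0 within chow (median -1.69, 2 called) and 7 of 8 hepatocyte markers above 0 (median 0.86), and their part was not tested. In 6 members heavy exceeded light in all 3 chow livers (12.2% of tested genes), and in 3 it was lower in all 3 (16%).

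Within keto 16 members lay above 0 and 29 below, with a median of -0.34 beside 0.03 for all genes, of which 48.3% lay below 0. Of the listed nuclear RNAs 5 of 7 lay above 0 within keto (median 0.95), and 6 of 8 hepatocyte markers below 0 (median -0.32). Their part was not tested. In 17 members heavy was lower than light in both keto livers (23.2% of tested genes), and in 8 it was higher in both (25.9%). Large subunit factors gave 9 of their 10 values below 0 (median -0.93), while 49 further large subunit assembly factors that are not members had 29 values below 0 (median -0.03). Nop16, a large subunit factor in yeast, had 0.786 and 0.773 CPM in keto heavy pools, against 2.10 and 5.30 CPM in keto light pools (log2 -2.07 ± 0.93, adjusted p = 1). Rrp12 had 0.629 and 0.579 CPM in keto heavy and 2.10 and 2.83 CPM in keto light (-1.97 ± 0.97, adjusted p = 1). Nop56, a scaffold of the box C/D particle, had 0.157 and 1.55 CPM in keto heavy and 4.96 and 1.41 CPM in keto light (-2.05 ± 1.04, adjusted p = 1), and the difference came from keto 1, since it was 0.12 without that liver. The keto median itself was 0.0214 without keto 1.

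Nop2, a cytosine methyltransferase acting on large subunit rRNA, had lower CPM in heavy than in light in all 6 livers. It was the only such member of 45 tested, beside 1.49% of tested genes. In keto 2 Nop2 had 5 counts in each pool, so its direction there came from the scaling. It had 0.786 and 0.966 CPM in keto heavy against 5.34 and 1.77 CPM in keto light, 3.29 CPM in S209A heavy against 5.01 CPM in S209A light, and 3.23, 4.06 and 4.23 CPM in chow heavy against 4.70, 5.46 and 6.70 CPM in chow light. Its fitted log2 heavy over light was -0.90 ± 0.46 over all livers (adjusted p = 0.998) and -1.91 ± 0.97 within keto (adjusted p = 1). Nol9, a kinase of large subunit rRNA processing, had the smallest p over all livers (-0.99 ± 0.48, adjusted p = 0.998). It had 2.67 and 2.12 CPM in keto heavy, 3.29 CPM in S209A heavy and 0.993, 4.64 and 1.02 CPM in chow heavy, beside 5.53 and 6.01 CPM in keto light, 2.83 CPM in S209A light and 4.17, 5.60 and 3.12 CPM in chow light, so S209A alone ran the other way. Nol7 (0.56 ± 0.31) and Imp3 (0.91 ± 0.52) had the next smallest p over all livers, both above 0 (adjusted p = 0.998 in edgeR for each). No member was higher in heavy in all 6 livers (1.5% of tested genes were).

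Set against chow, the keto ratios of heavy over light were lower for 29 of 45 members (median -0.55, against 0.15 for all genes, of which 45.7% were lower). In the same comparison all 7 listed nuclear RNAs lay above 0 (median 1.65, 1 called) and all 8 hepatocyte markers below 0 (median -0.88), and their part in the members' values was not tested. Of the members, 5 had an unadjusted p under 0.05 (6.04% of tested genes), all below 0. The members named here had the smallest p among those at or above the median mean count over the 12 libraries. Beside nucleolin they were Rrp12 (-3.14 ± 1.19, adjusted p = 0.594), Nop16 (-2.72 ± 1.14, adjusted p = 0.7) and Utp18 (-2.46 ± 1.26, adjusted p = 0.824). Their counts in keto 1 and keto 2 heavy were low, at 4 and 3 for Rrp12, 5 and 4 for Nop16 and 2 and 8 for Utp18. Utp18, a subunit of a processome building block in yeast, had 0.314 and 1.55 CPM in keto heavy, 1.23 CPM in S209A heavy and 5.71, 4.93 and 3.86 CPM in chow heavy, and 2.10 and 3.89 CPM in keto light, 6.30 CPM in S209A light and 2.78, 3.16 and 3.58 CPM in chow light. It was lower in heavy in the keto and S209A livers and higher in heavy in the chow livers. Members higher in heavy in all 3 chow livers and lower in both keto livers numbered 4 (Noc4l, Nol11, Nop53 and Utp18), beside 2.98% of tested genes. Nop53 had more raw counts in heavy than in light in both keto livers (76 against 66 and 44 against 26). Its log2 ratios there were -0.07 and -0.11, so that direction came from the scaling. Nol11 had 2 and 3 counts in keto heavy, against 4 and 12 in keto light.

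Comparing the heavy pools of keto and chow livers directly, 33 of 45 members lay below 0 and 12 above, with a median of -0.59 beside -0.04 for all genes, of which 51.6% lay below 0. edgeR called 0 of 10552 genes in this comparison (0%), members included, and 862 genes (8.17%) had an unadjusted p under 0.05, of which 8 were members, all below 0. DESeq2 called 111 genes and limma-voom 4, with no member in either. In 17 of 45 members both keto heavy pools lay below all 3 chow heavy pools, which held for 13.4% of tested genes, and in 0 members did both lie above (14.5%).

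The values furthest below 0 were those of Rrp12, Utp4, Utp11, Nop16 and Utp23. Rrp12 had 0.629 and 0.579 CPM in keto heavy, against 9.68, 12.5 and 3.50 CPM in chow heavy, from 4 and 3 counts in keto and 39, 86 and 48 counts in chow (log2 -3.77 ± 0.89, adjusted p = 0.407). Its S209A heavy pool held 3.50 CPM, the level of the lowest chow pool. Rrp12 passed without chow 3 (-4.12, adjusted p = 0.0271), with no filter on counts (-3.79, adjusted p = 0.0159) and with the title wording as a batch term (-4.16, adjusted p = 0.0149). Nop16 had 0.786 and 0.773 CPM in keto heavy, against 7.45, 5.22 and 3.06 CPM in chow heavy (-2.71 ± 0.84, adjusted p = 0.49). Utp11, a small subunit processome protein, had 0.157 and 1.16 CPM in keto heavy, against 1.49, 5.65 and 5.90 CPM in chow heavy (-2.76 ± 1.08, adjusted p = 0.536). In all of these the keto and chow pools did not overlap, and every keto count was under 10.

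**Figure D3:**
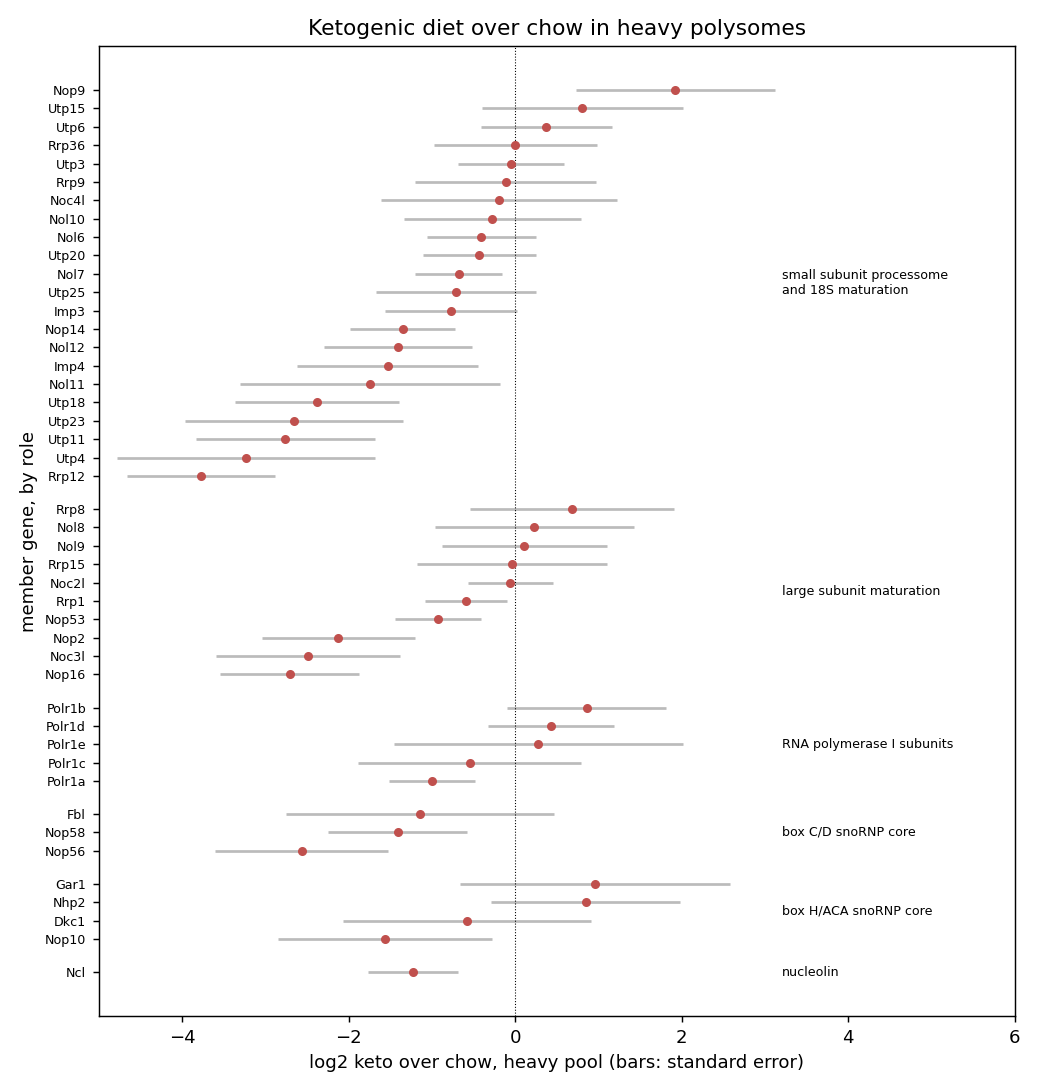
Log2 keto over chow in the heavy pool for each tested member, grouped by role, with standard errors as bars. Box C/D core members and nucleolin lie below 0, as do 18 of 22 small subunit factors, while RNA polymerase I subunits lie on both sides.

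By role, the box C/D core lay lowest. Nop56 had 0.157 and 1.55 CPM in keto heavy, against 2.23, 4.64 and 7.80 CPM in chow heavy (-2.56 ± 1.04, adjusted p = 0.553). Nop58, its partner scaffold, had 1.10 and 2.70 CPM in keto heavy, against 7.45, 2.61 and 5.18 CPM in chow heavy (-1.41 ± 0.83, adjusted p = 0.7), with overlap. Fbl, the methyltransferase of the particle, had 0 and 8 counts in keto heavy, against 9, 0 and 38 counts in chow heavy (-1.14 ± 1.61, adjusted p = 0.903). Small subunit factors had a median of -0.69 with 4 of 22 above 0, large subunit factors -0.33 with 3 of 10 above 0. Nucleolin was at -1.23 ± 0.54 (adjusted p = 0.59), with both keto pools below every chow pool.

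RNA polymerase I subunits (median 0.28, 3 of 5 above 0) and the box H/ACA core (0.14, 2 of 4 above 0) showed no common direction. Polr1a, the largest subunit, had 6.76 and 7.92 CPM in keto heavy, against 16.9, 16.2 and 11.1 CPM in chow heavy (-1.0 ± 0.52, adjusted p = 0.643). Polr1b, the second largest, had 1.89 and 4.06 CPM in keto heavy, against 2.48, 0.870 and 1.60 CPM in chow heavy (0.86 ± 0.96, adjusted p = 0.864). Dkc1, the pseudouridine synthase dyskerin, had 3 and 8 counts in keto heavy, against 10, 0 and 28 counts in chow heavy (-0.57 ± 1.49, adjusted p = 0.955). The groups overlapped in Polr1b and Dkc1, and not in Polr1a.

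**Figure D4:**
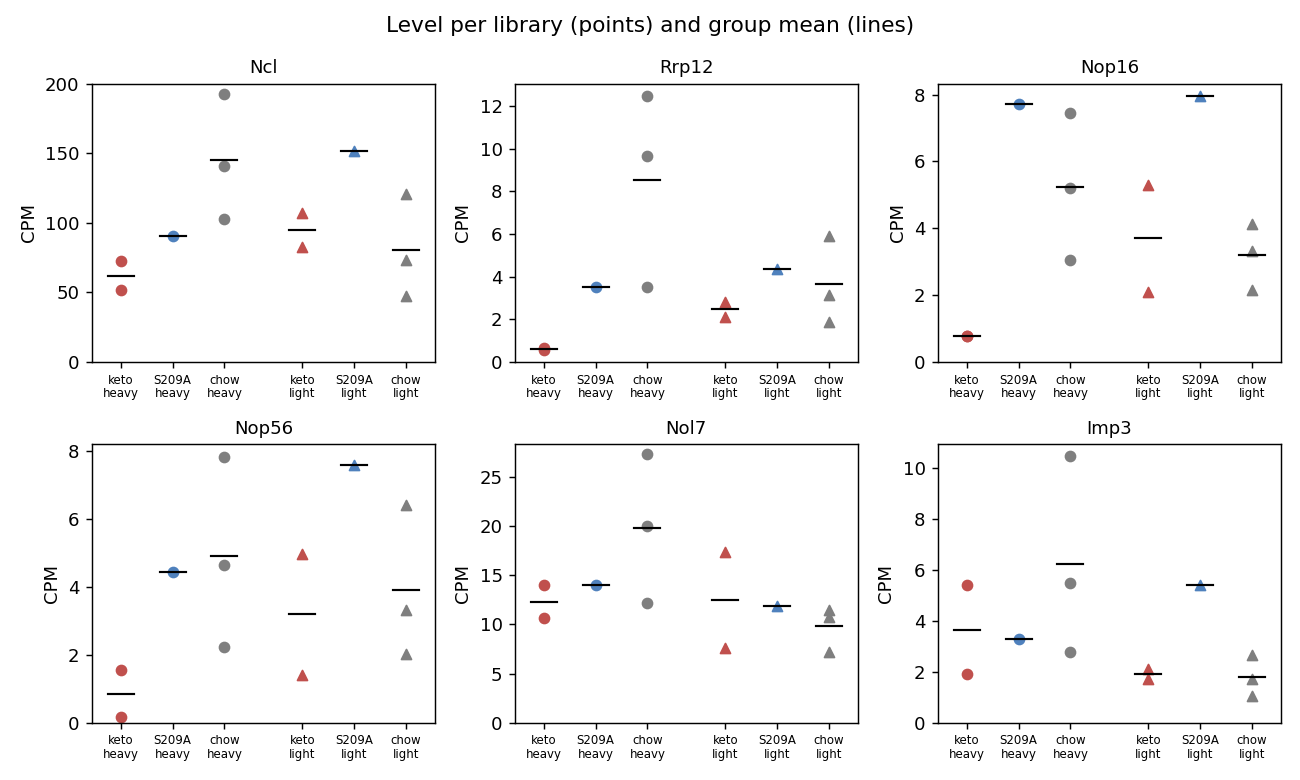
CPM of 6 members in each library, with circles for heavy pools, triangles for light pools and lines for group means. In Ncl, Rrp12, Nop16 and Nop56 both keto heavy pools lie below all 3 chow heavy pools, and in the light pools keto and chow overlap.

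The low member median in keto heavy was mostly that of 1 liver, keto 1. Still, both keto heavy pools lay below all 3 chow heavy pools in 17 of 45 members (13.4% of tested genes). Against the chow mean the median member was at -0.94 in keto 1 heavy and at -0.01 in keto 2 heavy. The fitted keto over chow median was -0.19 without keto 1 and -1.17 without keto 2. Largely nuclear RNA was high in the heavy pools of both keto livers. The 7 nuclear RNAs listed were Malat1, Neat1, Rn7sk, Rpph1, Rmrp, Kcnq1ot1 and Meg3. Their counts equalled 11.2% and 10.4% of the protein-coding total in keto 1 and keto 2 heavy, against 0.975%, 1.38% and 2.06% in chow heavy. These RNAs are noncoding and not part of that total, and all 7 lay above 0 (median log2 3.12). Meg3 had 0 counts in chow 1 and chow 2 heavy. The same list was at 6.08% and 8.72% in keto light, against 7.25%, 4.03% and 1.38% in chow light. Hepatocyte markers, present in every library, came to 4.71% and 5.83% in keto heavy, against 6.06%, 7.84% and 6.20% in chow heavy, with 7 of 8 below 0 (median -1.08). Their part in the members' result was not tested.

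Other genes of the pathway also lay mostly below 0 in keto heavy. The median was -0.74 for 8 RNA polymerase I transcription factors (6 below 0), -0.61 for 36 further small subunit assembly factors (27 below 0), -0.73 for 49 large subunit assembly factors (36 below 0), -1.46 for 10 snoRNP assembly factors (7 below 0) and -0.46 for 13 exosome genes (9 below 0). The cytosolic ribosomal proteins lay lower, with a median of -1.75 and 73 of 77 below 0, and the mitochondrial ribosomal proteins had -0.52 with 45 of 72 below 0. None of these genes was called. In the light pools the median of the cytosolic ribosomal proteins in keto over chow was -1.25, with 64 of 77 below 0. There the large subunit assembly list had 40 of 49 below 0 (median -0.51), the small subunit assembly list 26 of 36 (median -0.57) and the RNA polymerase I transcription list 6 of 8 (median -0.53), so these lists lay mostly below 0 in both pools.

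In the light pools 21 members lay above 0 and 24 below in keto over chow, with a median of -0.13 for the members and for all genes (44.1% of genes above 0), and edgeR called 0 of 10551 genes (0%), with 640 genes (6.07%) and 3 members at an unadjusted p under 0.05. Both keto light pools lay below all chow light pools in 5 members (14.6% of tested genes) and above in 4 (11.2%). Noc4l, a small subunit factor chosen here after its values were seen, had 15 and 19 counts in keto light, against 2, 0 and 2 counts in chow light (log2 4.72 ± 1.16, adjusted p = 0.796). Fbl had 0 counts in both keto light pools, against 0, 7 and 32 counts in chow light, so the libraries overlap at 0 and no fold is given. The members named next were at or above the median mean count over the 12 libraries, which does not bar low counts in single pools. Utp20 had 4.77 and 0.707 CPM in keto light, against 13.0, 5.32 and 6.39 CPM in chow light (-1.48 ± 0.76, adjusted p = 0.799). Noc3l had 0.572 and 2.47 CPM in keto light, against 1.91, 3.88 and 6.39 CPM in chow light (-1.53 ± 0.91, adjusted p = 0.804). Nop14, a processome scaffold, had 5.15 and 4.95 CPM in keto light, against 10.4, 5.75 and 11.7 CPM in chow light (-0.88 ± 0.56, adjusted p = 0.818). Polr1a was at -0.88 ± 0.58 (adjusted p = 0.821 in edgeR).

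In the S209A heavy pool 19 members lay above chow and 26 below (median -0.23, all genes -0.07, 47% of them above; the member median was -0.00687 without chow 2, -0.132 without chow 3 and -0.0391 with the title wording as a batch), and edgeR called 0 genes (0%), with 265 genes (2.51%) and 1 member at an unadjusted p under 0.05. The title wording as a batch sets S209A against chow 3 alone. The heavy pool of S209A was above all 3 chow heavy pools in 7 of 45 members (22.4% of tested genes). It was below them in 9 (17.1%). In S209A heavy over chow the fitted log2 was -1.95 for Utp18, -1.28 for Rrp12, -0.69 for nucleolin and 0.58 for Rrp1. In the light pool 24 lay above and 21 below (median 0.09, all genes -0.16, 44.9% of them above), and edgeR again called 0 genes (0%), with 806 genes (7.64%) and 1 member at an unadjusted p under 0.05. The S209A light pool was above all 3 chow light pools in 18 of 45 members (27.3% of tested genes) and below them in 8 (30.7%). Rrp1, a large subunit factor, had 39.4 CPM in S209A heavy, against 26.8, 29.4 and 22.8 CPM in chow heavy, and 46.1 CPM in S209A light, against 14.8, 18.7 and 26.5 CPM in chow light (light, 1.25 ± 0.55, adjusted p = 0.63). Nop53, which in yeast brings the exosome to pre-60S particles, had 25.1 CPM in S209A light, against 6.61, 14.5 and 16.4 CPM in chow light (1.04 ± 0.62, adjusted p = 0.636). Imp3 was at 5.40 CPM in S209A light, against at most 2.65 CPM in chow light (1.59 ± 0.88, adjusted p = 0.635). In S209A light over chow Nop16 was at 1.35. Of the cytosolic ribosomal proteins, 73 of 77 lay above chow in S209A light (median 1.68), as did 55 of 72 mitochondrial ribosomal proteins (median 0.72). The nuclear RNA list was at 0.674% in S209A light, against 1.38% to 7.25% in chow light, and its part in these values was not tested.

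As a ratio of heavy over light, 28 of 45 members lay lower in S209A than in chow (median -0.37, all genes 0.12, 47% of them lower), with 29 of 10555 genes called (0.275%) and no member among them. At an unadjusted p under 0.05 stood 3 members (6.55% of tested genes). Nucleolin was at -1.67 ± 0.73 (adjusted p = 0.647), and at -2.21 without chow 3. Utp18 was at -2.91 ± 1.48 (adjusted p = 0.76). Imp3 was at -2.34 and Nop53 at -0.97. In this S209A ratio all 7 listed nuclear RNAs lay above 0 (median 1.69) and all 8 hepatocyte markers below 0 (median -1.03). Their part in the members' values was not tested. The S209A and keto comparisons share the chow libraries, so their values are not independent of each other. The member median of heavy over light was -0.13 in S209A and -0.09 in chow 3, the chow liver whose titles and aligner match those of S209A.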

How the data were processed

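RNA of 12 libraries, a heavy and a light pool from each of 6 livers, was sequenced. Per the labels' protocols, gradient fractions 2 to 7 and 8 to 13 were pooled, without saying which pool is heavy, and stranded libraries were made from 10 ng of total RNA with a low-input kit. The deposited values are raw counts per gene ID, made by the authors. Per the submitters' processing notes, Trimmomatic, HISAT2, StringTie and build mm10 were used. Per the file headers, chow 1 and chow 2 came from Bowtie2 and chow 3 and S209A from HISAT2, while the keto headers name no aligner. The sources used here give neither versions nor counting settings, strand included, so members that overlap other genes (such as Nop56 with Idh3b, Nol7 with Ranbp9 and Nop9 with Cideb) are uncertain, as is Fbl, which has a pseudogene. Of genes with 1 to 100 counts, 79.5% to 83.6% had even counts in chow 3 and S209A libraries and 57.8% to 65.6% in the others, which counting both reads of a pair could give and which was not settled, so an alternative halved those counts. IDs were named through the RefSeq gene table of GRCm38.p6 (25275 of 27179 matched).

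Genes were kept by filterByExpr in edgeR 4.0.16 (minimum count 10, by condition), leaving 10555, and scaled by TMM. Heavy and light were compared with the animal as a block, and diet and genotype within each pool, by edgeR's quasi-likelihood test at an adjusted p of 0.05. The standard error is the absolute log2 fold change over the square root of F. DESeq2 1.42.0 and limma-voom (limma 3.58.1, R 4.3.3) were alternatives. The steps were tested on simulated data. The labels call replicates separate animals by number only, so p-values measure the spread between these samples. No replicate pair agreed within sampling noise (chi-square per degree of freedom 31.3 to 410). Deviations of chow and keto libraries with the same number did not correlate (r = -0.0146 in heavy and -0.0275 in light), so numbers were not taken as pairs. The members and lists were chosen with earlier results of these data known. Named members are Fbl, Ncl, Dkc1, Nop56, Nop58, Polr1a and Polr1b, and in each comparison the 4 with the smallest unadjusted p among members at or above the median mean count of 23.4.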

Additional observations from a re-analysis of the deposited data

How the results depend on the processing

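Without chow 3 there was 1 member called within chow and in the keto minus chow ratios (Ncl each time) and in keto over chow heavy (Rrp12). That last count was also 1 with no count filter, with the title wording as a batch and with the replicate block across chow and keto (Rrp12 -4.11, adjusted p = 0.0144), and was 0 in edgeR as reported. The title wording and the replicate block each fit chow 3 exactly. In those fits keto is thus compared with chow 1 and chow 2 alone, as it is without chow 3. With the title wording as a batch, S209A is compared with chow 3 alone, 1 liver against 1. Leaving out keto 1 or keto 2 moved the member median to 0.0214 or -0.831 within keto, and to -0.189 or -1.17 in keto over chow heavy. The keto minus chow median was -0.884 without keto 2 and -0.276 without keto 1. The S209A over chow heavy median was -0.0391 with the title wording as a batch, -0.00687 without chow 2 and -0.132 without chow 3, the range over left-out animals ending at -0.234 without keto 2. Nop56 within keto turned to 0.12 without keto 1 and was -4.85 without keto 2. The causes were not tested. The replicate block across chow and keto changed no other member's call, and neither did halving the counts of chow 3 and S209A, an alternative chosen after seeing the data. Of the alternatives for member counts and medians, 15 moved the value and 243 did not. Among the other values followed, 54 moved, 7 became stronger, 1 reversed and 514 stayed the same. Counts of all genes called moved more. For keto over chow heavy they were 0 as reported, 111 with DESeq2, 112 with no count filter, 126 with the title wording, 80 with the replicate block and 67 without chow 3. For heavy over light within chow they were 24 as reported, 97 with DESeq2, 0 without the animal block and 407 without chow 3. For keto minus chow they were 20 as reported, 214 without chow 3 and 0 without the animal block. Member counts of 8 to 44 at the median limit what a single member can show.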
